A study of Macaca mulatta with 33 samples.

Results

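Chemokines, interleukins, members of the tumour necrosis factor (TNF) superfamily and their receptors were followed across 7 groups of rhesus macaque corpora lutea. The members are the genes whose single symbol begins with CCL, CXCL, CCR, CXCR, TNFSF, TNFRSF or IL and a digit. The rule leaves out 12 genes whose symbols begin with IL1R, IL1A, IL1B, IL18 or IL33, and 1 chemokine by name. Other genes of the interleukin 1 family, such as IL37, were kept. Of 124 candidate genes, 76 had a probe set with a deposited log2 intensity above 6.2 in at least 4 arrays, out of 10489 genes tested. They comprise 17 chemokine ligands, 7 chemokine receptors, 13 interleukins, 20 interleukin receptors, 6 TNF superfamily ligands and 12 TNF superfamily receptors. The last member, IL4I1, fits the letters of the rule but encodes an amino acid oxidase.

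The corpus luteum forms from the ovulated follicle and makes progesterone, and in a fertile cycle the embryo's chorionic gonadotropin keeps it working past its usual end. Chemokines are small secreted proteins that draw leukocytes along a gradient through G protein-coupled receptors. Interleukins and TNF ligands act on receptors that feed the JAK-STAT and NF-kappaB pathways, and macrophages and lymphocytes enter the corpus luteum, above all when it regresses.

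Early pregnancy was simulated in adult females by giving human chorionic gonadotropin (hCG) in rising doses from luteal day 9. Untreated tissue was collected on luteal day 10 (8 samples). Treated tissue was collected after 1 day of hCG, on day 10, or after 6 days, on day 15. At each time hCG was given alone, with trilostane (TRL), which inhibits 3-beta-hydroxysteroid dehydrogenase and so steroid synthesis, or with trilostane and R5020, a synthetic progestin, with 4 samples in each of these 6 groups. No untreated tissue of day 15 is among the groups, so 6 days of hCG and 5 later luteal days cannot be told apart against untreated day 10. The labels do not say that each sample is a separate animal, so a p-value reflects only how far these samples spread, which may be technical.

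RNA of dissected luteal tissue was hybridised to 33 Affymetrix rhesus arrays, 1 sample per array. Levels are log2 intensities, centred on each array's median and adjusted for the array set, a number of 1 to 3 in the array names. Replicates 3 and 5 of day 15 hCG share a sample number in the labels, though not in their titles, which carry 3 and 5. They were averaged into 1 sample. The replicate 4 arrays of day 15 hCG with TRL and of day 15 hCG with TRL and R5020, which have different labels, were the most alike of all 528 pairs, and both lie in set 3. The SD of their differences over probe sets was 0.192, beside 0.201 for the averaged replicates 3 and 5 and a median of 0.476 over all pairs. Their titles both end in the number 5. They were kept as separate samples because their labels give different treatments. The differences of members named with TRL or R5020 at day 15 are also given without set 3. Day 10 hCG, alone or with TRL, lies in set 1 and day 10 hCG with TRL and R5020 in set 2. Day 15 hCG shares only set 3 with the other day 15 groups. Comparisons across these sets rest on the estimated set effect. STAR, the cholesterol carrier of steroid-making cells, had group means of 14.48 to 14.78. HSD3B2, the enzyme that trilostane inhibits, had means of 13.33 in untreated tissue, 13.78 in day 10 hCG, 13.71 in day 10 hCG with TRL and 12.33 in day 15 hCG. At day 15 its mean was 10.92 with TRL and 11.38 with TRL and R5020. In whole tissue, fewer cells of a type and less RNA per cell cannot be told apart.

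Of the 76 members, 57 exceeded the limit of 6.2 in every array. Among the 48 candidates without such a probe set were IL6 and the neutrophil attractant CXCL8, with mean levels of 4.86 and 5.19, and TNFRSF1A was not measured. Just inside the limit were CCL17, TNFSF11 and IL4I1, each above it in 4 arrays, and just outside it were IL17F with 3 arrays and CCL24 with 2.

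Across the 7 groups, 15 members differed by limma's moderated F test at an adjusted p under 0.05, which is 19.7% of the members beside 17.9% of all genes. They were 5 of the 17 chemokine ligands, 1 of 7 chemokine receptors, 2 of 13 interleukins, 4 of 20 interleukin receptors, 1 of 6 TNF superfamily ligands and 2 of 12 TNF superfamily receptors. The smallest adjusted p-values were those of IL2 (9.1e-06), TNFRSF12A (0.00011), TNFRSF11B (0.00040), IL13RA2 (0.0028) and CCRL2 (0.0031). CCL3, IL6R, TNFSF13B, CCL25, CCL8 and IL15 followed, with 0.0073 to 0.033. CXCL16, IL10RA, IL2RG and CCL21 also passed, with 0.035 to 0.046, and are named after their values were seen. These last 4 kept their calls in 3 (CXCL16), 5 (IL10RA), 6 (IL2RG) and 7 (CCL21) of 11 other settings. With each of the 32 samples left out in turn, the call was lost in 9 (CXCL16), 19 (IL10RA), 23 (IL2RG) and 22 (CCL21) cases. CCL3, IL6R, TNFSF13B and IL15 did not pass without an array set term or with array set as a random block. For CCL3, CCL8, IL6R, TNFSF13B, IL2RG and CCL21, 1 of 2 kept probe sets passed the F test. All kept probe sets passed for CCL25 (4), IL2 (2) and TNFRSF11B (2). Without day 15 hCG with TRL replicate 1, 9 members passed in all. TNFRSF11B is counted in the 15, but it became a member only through its untreated level, so its F test is given as a description.

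**Figure D1:**
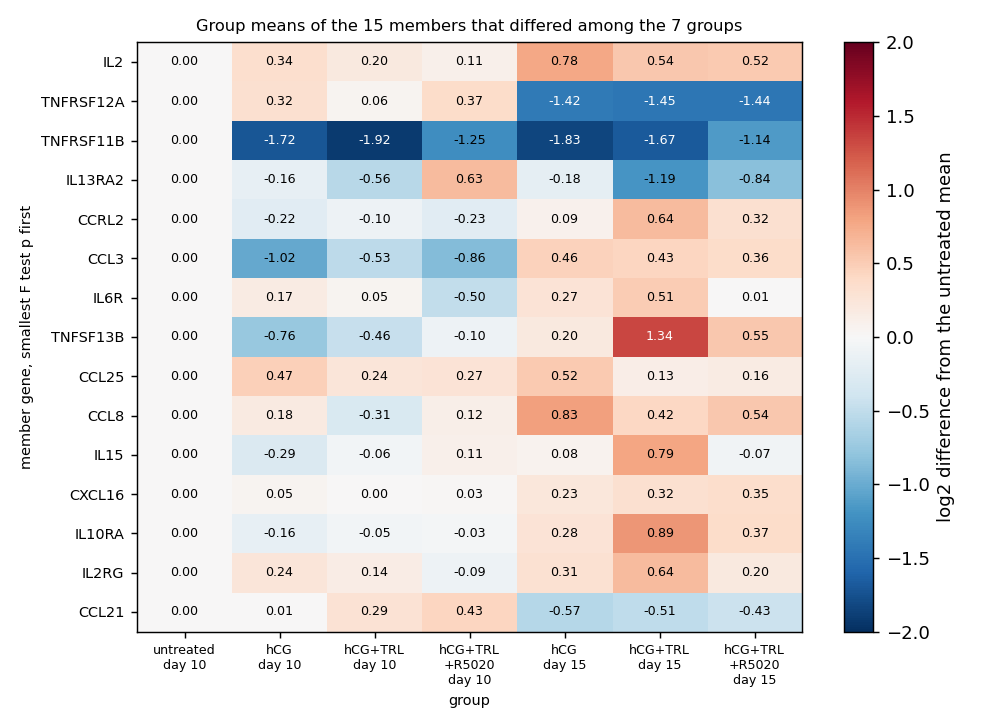
Colour and printed numbers give each group's mean log2 level minus the untreated mean, for the 15 members (rows, smallest F test p first) in the 7 groups (columns). TNFRSF11B is lower than untreated in all 6 treated groups, by 1.14 to 1.92, but it became a member only through its untreated level. TNFRSF12A is lower in the 3 day 15 groups, with differences of -1.42 to -1.45.

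After 1 day of hCG, CCL25 and IL2 were higher than in untreated tissue. The decoy receptor TNFRSF11B was lower, but it passed the limit of 6.2 through the untreated group, so its place among the members rests on its untreated level. These 3 members passed in the comparison of hCG for 1 day with untreated tissue, 2 higher and 1 lower, where 5.6% of all genes passed (4.31% higher and 1.29% lower). The median change of the 76 members was 0.04 and that of all genes 0.06, and 46 members lay above 0, beside 61.7% of all genes. At an unadjusted p under 0.05 there were 8 members, beside 21.6% of all genes.

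After 6 days of hCG, 5 members differed from untreated tissue, where 6.15% of all genes passed. CCL25, CCL8 and IL2 were higher (background 4.09%), and TNFRSF11B, again subject to that selection, and TNFRSF12A were lower (background 2.06%). The median change was 0.05 for the members and 0.04 for all genes. Between 6 days and 1 day of hCG, CCL3 and IL2 rose and TNFRSF12A fell, 3 members where 7.73% of all genes passed (3.19% higher and 4.54% lower). In that comparison 14 of the 17 chemokine ligands lay above 0, with a median change of 0.11, beside 46.7% of all genes above 0 and a median of -0.02, but only CCL3 passed.

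**Figure D2:**
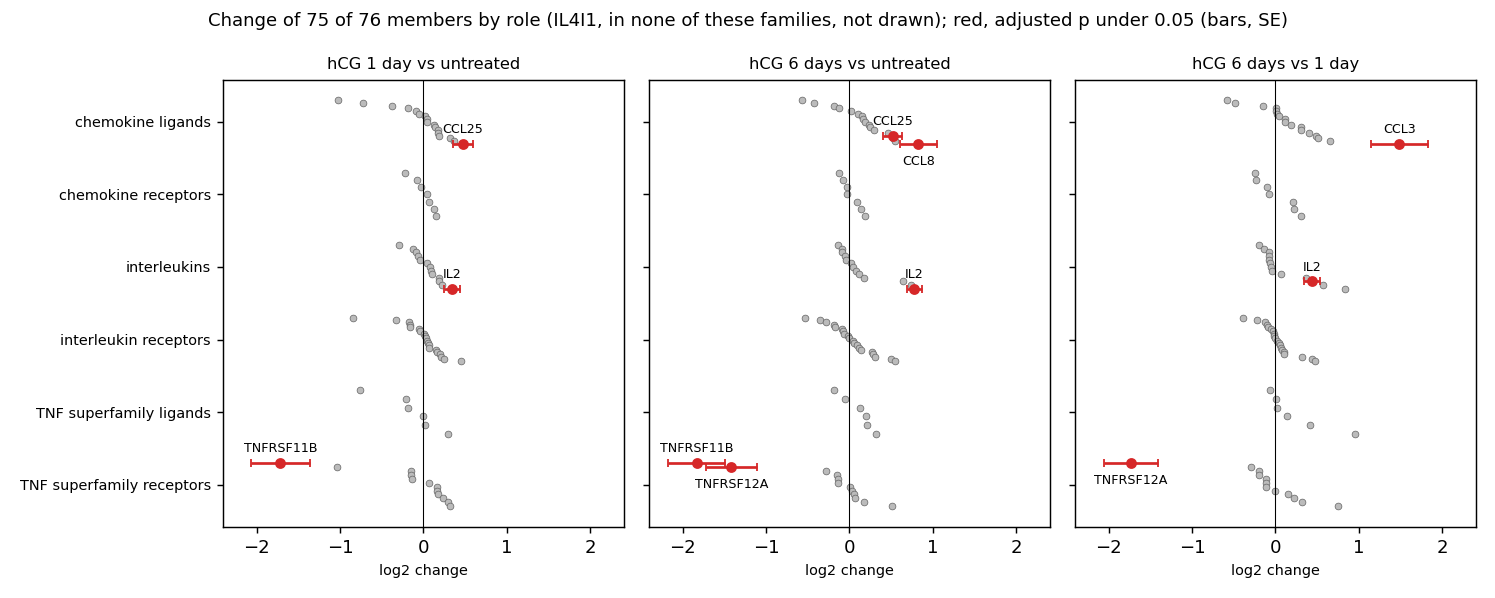
Each point is a member's log2 change (horizontal axis) in 1 of the 3 comparisons of hCG, in rows by role, with IL4I1 not drawn. Red points with SE bars passed at an adjusted p under 0.05: 3 members at 1 day, 5 at 6 days and 3 between the days. The counts at 1 day and 6 days against untreated include TNFRSF11B, which became a member only through its untreated level.

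Among the chemokine ligands, CCL3 attracts monocytes and other leukocytes. Its level in untreated tissue ran from 7.12 through a median of 8.29 to 8.76. The 4 samples of 1 day of hCG had 7.35, 6.89, 7.63 and 6.84. Those of 6 days had 8.99, 9.12, 7.97 and 8.58, all above every sample of 1 day. CCL3 was 2.80-fold higher at 6 days than at 1 day (log2 change 1.49 ± 0.35 SE, adjusted p 0.0087). At 1 day the change from untreated tissue was -1.02 ± 0.34 (adjusted p 0.079), which did not pass. A second CCL3 probe set gave 0.43 ± 0.15 between the days (adjusted p 0.092). Within array set 1 the change between the days was 1.28 (adjusted p 0.11), and without day 15 hCG replicate 2 its adjusted p was 0.052.

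Macrophage and monocyte markers moved beside CCL3. Of 20 listed, 15 were measured, and 14 of these lay above 0 between 6 days and 1 day of hCG, with a median change of 0.49, although none passed. The mean over the 15 markers ran from 8.69 to 9.08 at 1 day of hCG, from 9.22 to 9.64 at 6 days and from 8.38 to 9.68 in untreated tissue. CD163, FCER1G, FCGR1A, FCGR3A and LAPTM5 were not measured. Neutrophil markers, 4 of 12 measured, had a median change of 0.40 between the days with all 4 above 0, and their mean ran from 7.18 to 7.77 at 1 day and from 7.95 to 8.32 at 6 days. Both red cell markers measured, of 9 listed, lay above 0, with a median of 0.62. None of these macrophage, neutrophil or red cell markers passed. Among other lists, 4 of 8 steroidogenic luteal cell markers measured were lower between the days (median -0.20). So was 1 of 10 fibroblast markers, where 4.54% of all genes were lower. The part of any of these markers in the change of CCL3 was not tested.

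CCL8, a monocyte attractant that binds CCR2 among other receptors, ran from 8.64 through 8.99 to 9.42 in untreated tissue. After 6 days of hCG the samples had 9.23, 9.83, 10.14 and 10.09, so that 3 of 4 lay above all untreated samples. The rise was 1.77-fold (0.83 ± 0.23, adjusted p 0.029). It no longer passed within array set 1 (0.82, adjusted p 0.075), without array set 3 (0.82, adjusted p 0.0502), or without any 1 of untreated replicates 1 and 4 and day 15 hCG replicates 2, 3 and 4, and was kept in 6 of 12 other settings. A second CCL8 probe set gave 0.01 ± 0.31. The 15 macrophage markers had a median change of 0.36 in the same comparison, with 12 above 0, and the 4 neutrophil markers 0.62, with all 4 above 0. Of 8 steroidogenic luteal cell markers measured, 1 was higher and 2 were lower, and 1 of 10 fibroblast markers was lower. Among all genes 4.09% were higher and 2.06% lower. The part of any of these markers in the rise of CCL8 was not tested.

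CCL25, which draws T cells to thymus and gut through CCR9, ran from 11.71 through 12.03 to 12.17 in untreated tissue. One day of hCG gave 12.18, 12.51, 12.61 and 12.53, and 6 days gave 12.29, 12.61, 12.53 and 12.58. Neither group overlapped the untreated samples. The changes were 0.47 ± 0.12 at 1 day (1.39-fold, adjusted p 0.023) and 0.52 ± 0.12 at 6 days (1.43-fold, adjusted p 0.0080). These values are of its brightest probe set, which stands at percentile 97.5 of all genes tested. The 4 probe sets of CCL25 had means from 7.55 to 12.34, and which transcripts they read was not tested. All 4 of its probe sets were higher at 1 day. At 6 days the weakest of them gave -0.05 ± 0.19, and it fell between the days (-0.79 ± 0.20, adjusted p 0.018) while the other 3 did not pass there. Within array set 1 the 1-day change was 0.47 with an adjusted p of 0.087, and leaving out any 1 of untreated replicates 1 and 4 and day 10 hCG replicates 2, 3 and 4 also ended that call.

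CCL2, the main monocyte attractant, did not pass in any comparison. Its untreated samples ran from 7.05 through 7.52 to 8.22, and 1 day of hCG gave 8.05, 6.14, 5.98 and 7.59. That spread within 1 group exceeded the change of -0.73 ± 0.48 between the groups. CXCL12 and its receptor CXCR4, which together hold leukocytes and progenitor cells in tissues, did not pass either. CXCL12 changed by 0.53 ± 0.27 at 6 days (adjusted p 0.31), and CXCR4 by -0.08 ± 0.25 (95% interval -0.59 to 0.43). No chemokine receptor passed in a comparison of 2 groups. CCRL2, which binds chemerin and presents it to other cells, was the 1 chemokine receptor that differed among the 7 groups.

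Of the interleukins, IL2, the growth factor of T cells, had the smallest adjusted p of all members in the F test and at 6 days against untreated tissue. Untreated samples ran from 13.03 through 13.12 to 13.34. One day of hCG gave 13.32, 13.51, 13.52 and 13.60, with 1 sample inside the untreated range. After 6 days they had 13.93, 13.84, 14.01 and 13.93, above every sample of both other groups. The change was 0.34 ± 0.09 at 1 day (adjusted p 0.038), 0.78 ± 0.09 at 6 days (1.71-fold, adjusted p 2.0e-05) and 0.44 ± 0.10 between the days (adjusted p 0.0062). The 1-day call was kept in 5 of 12 other settings, over which the change ran from 0.15 to 0.46. It ended without an array set term (0.15, adjusted p 0.50), with array set as a random block (0.25, 0.17), under quantile normalization (0.27, 0.081), with no filter (0.34, 0.066), without array set 3 (0.33, 0.051) and within array set 1 (0.33, 0.11). It also ended without any 1 of untreated replicates 1, 3 and 4 and day 10 hCG replicates 2, 3 and 4. The level of IL2 also differed between array sets, by 0.37 from set 1 to set 2 (adjusted p 0.018).

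The 3 probe sets named IL2 do not agree in level. Their means were 13.64, 12.57 and 3.23, and the last of these did not pass the limit of 6.2 in 4 arrays. The brightest, whose values are given above, stands at percentile 99.6 of all genes tested. A rise of this probe set is therefore not shown to be a rise of IL2 itself. Both of the brighter ones rose in all 3 comparisons of hCG, the second by 1.25 ± 0.14 at 6 days. Which transcripts these probe sets read was not tested, since probe sequences were not used here. T and NK lymphocyte markers, 10 of 20 measured, had a median change of 0.06 at 6 days, and none passed. CD3D, CD3E and CD3G were not measured.

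TNFRSF11B (osteoprotegerin) is a soluble decoy receptor for TNFSF11 and TNFSF10. Untreated samples ran from 6.02 through 7.72 to 7.83. The samples of 1 day of hCG had 6.57, 5.42, 4.95 and 5.53, and those of 6 days 5.27, 6.28, 5.43 and 5.03. In each hCG group 1 sample exceeded the lowest untreated sample, and the other 3 lay below all untreated samples. TNFRSF11B exceeded the limit of 6.2 in 9 arrays, 7 of them untreated, 1 of day 10 hCG and 1 of day 15 hCG, so it became a member only through the group where it was high. The fitted difference was -1.72 ± 0.35 at 1 day (adjusted p 0.0049) and -1.83 ± 0.34 at 6 days (adjusted p 0.0016). The hCG means of 5.62 and 5.50 lie under the limit, so these differences are given as a description and no fold is given. Its second probe set, with a mean of 5.31 and the same selection, gave -1.04 ± 0.25 and -1.32 ± 0.24.

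TNFRSF12A, the receptor of the cytokine TWEAK, did not pass at 1 day (0.32 ± 0.32, 95% interval -0.34 to 0.98) and was lower at 6 days. Untreated samples ran from 9.87 through 10.95 to 11.12, and 1 day of hCG gave 11.61, 10.46, 10.93 and 11.26. After 6 days the samples had 8.60, 9.53, 9.88 and 9.33, all below every sample of 1 day and overlapping 1 untreated sample. The fall was 2.67-fold from untreated (-1.42 ± 0.31, adjusted p 0.0058) and 3.32-fold from 1 day (-1.73 ± 0.33, adjusted p 0.0015). The groups given TRL or TRL and R5020 for 6 days lay in the same range, from 8.98 to 9.91.

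**Figure D3:**
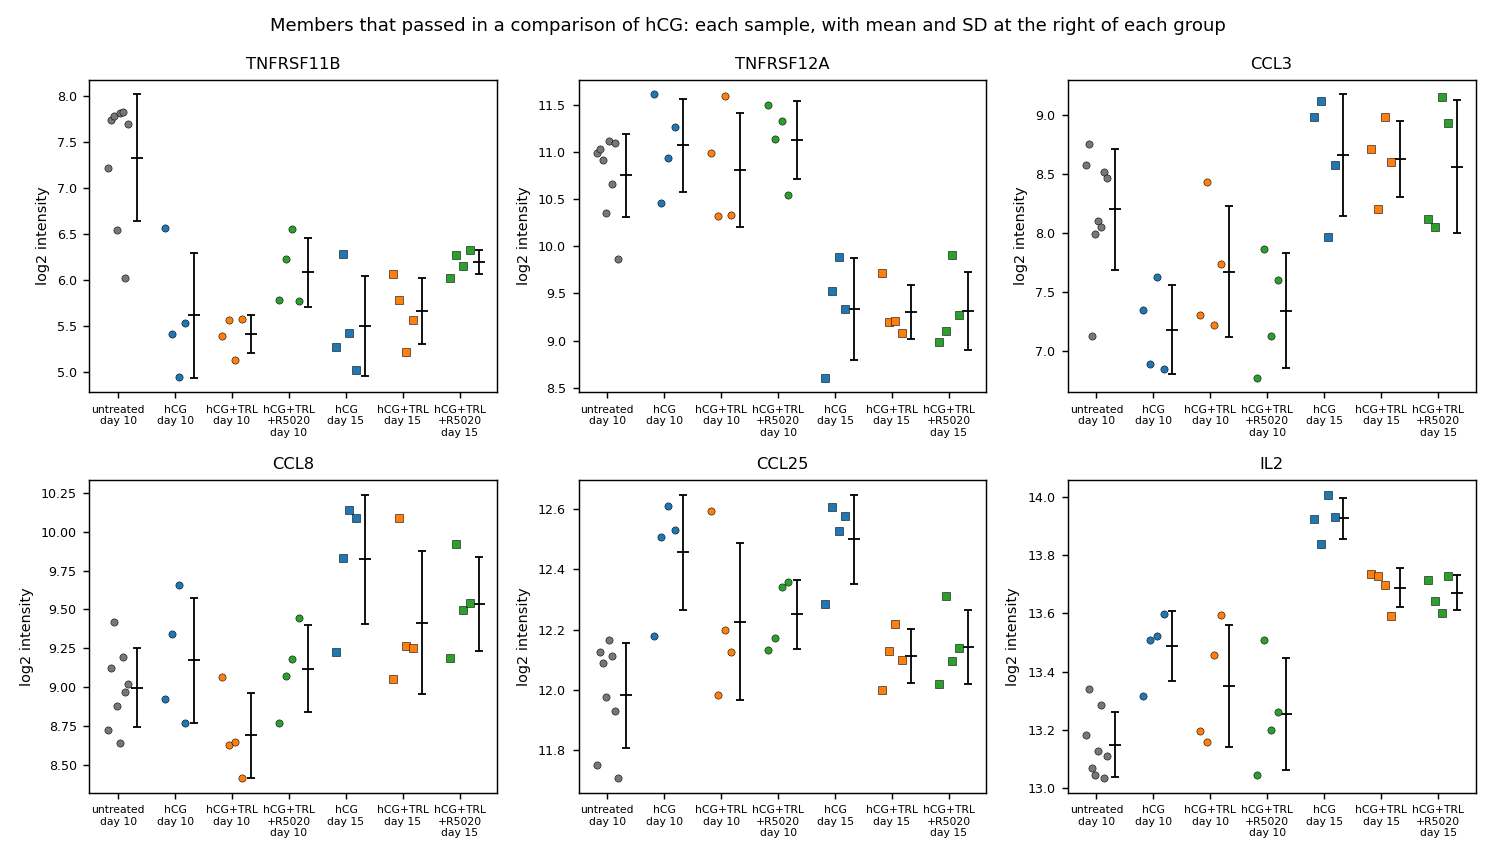
Each point is 1 sample's log2 level (vertical axis, array set adjusted) in the 7 groups, with the group mean and SD to its right, for the 6 members that passed in a comparison of hCG. TNFRSF11B, 1 of the 6, became a member only through its untreated level. All 4 samples of 6 days of hCG lie below every sample of 1 day for TNFRSF12A and above them for CCL3 and IL2.

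The receptor subunit IL6ST (gp130), which interleukin 6 and related cytokines share, had untreated levels from 10.65 through 11.05 to 11.61. One day of hCG gave 11.02, 9.87, 9.49 and 10.64, a change of -0.85 ± 0.29 (adjusted p 0.095) that did not pass. TNFRSF1B, a receptor of TNF itself, changed by 0.51 ± 0.18 at 6 days (adjusted p 0.11). IL11RA, the interleukin 11 receptor, changed by 0.54 ± 0.22 (adjusted p 0.17). TNFSF10 (TRAIL), a ligand that can trigger apoptosis, and TNFRSF21, a death domain receptor, gave 0.13 ± 0.17 and -0.13 ± 0.17, and neither passed. TNFSF18, a T cell costimulator, gave 0.42 ± 0.13 between the days (adjusted p 0.058).

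With trilostane added to hCG, no member passed at an adjusted p under 0.05 in limma's test. At day 10, where 0.00953% of all genes passed, 2 members had an unadjusted p under 0.05, beside 17.3% of all genes. At day 15, where 0% of all genes passed, 9 members did, beside 6.69% of all genes. TNFSF13B (BAFF), a survival factor of B cells made by myeloid cells, had 9.89, 9.58, 9.44 and 8.94 in day 15 hCG and 11.26, 9.97, 11.03 and 10.13 with TRL. With the array set adjustment the groups did not overlap, and the change was 1.14 ± 0.42 (unadjusted p 0.012, adjusted p 0.68). The estimated set effect of TNFSF13B was -0.80 from set 1 to set 2 (adjusted p 0.13). Most day 15 hCG arrays lie in set 1 and most TRL arrays in set 2, so the lack of overlap depends on this estimate.

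IL15, which sustains NK cells and memory T cells, had 6.63, 6.94, 6.76 and 6.96 in day 15 hCG and 8.28, 7.0, 7.56 and 7.31 with TRL. After the array set adjustment these did not overlap either (0.71 ± 0.26, adjusted p 0.68). The set effect of IL15 was -0.35 from set 1 to set 2 (adjusted p 0.32), and this lack of overlap depends on it too. CCRL2 was higher in all 4 TRL samples than in any hCG sample (0.55 ± 0.18, adjusted p 0.64). IL13RA2, a decoy receptor of interleukin 13, was lower in all 4, with 7.18, 6.89, 6.83 and 7.32 against 7.77, 8.04, 8.14 and 8.31 (-1.01 ± 0.39, adjusted p 0.72). None of these differences passed, and without array set 3 that of TNFSF13B was 1.52 (adjusted p 0.38), that of IL15 0.85 (adjusted p 0.46), that of CCRL2 0.64 (adjusted p 0.40) and that of IL13RA2 -0.99 (adjusted p 0.64). Over the other settings the difference of TNFSF13B ran from 0.31 to 1.52 and that of IL15 from 0.36 to 0.85. The share of all genes without overlap between these groups was not computed. The lack of overlap of these 4 members is therefore only a description.

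With R5020 added to trilostane, no member passed against trilostane alone, and 0% of all genes passed at either day. At an unadjusted p under 0.05 there were 3 members at day 10, beside 2.91% of all genes, and 11 at day 15, beside 3.99%. IL15 had 6.46, 6.92, 6.39 and 6.93 in day 15 hCG with TRL and R5020, all below the 4 TRL samples (-0.86 ± 0.20, unadjusted p 0.00024, adjusted p 0.51). Without array set 3 its difference was -1.02 (adjusted p 0.18), and within array set 2 alone the adjusted p was 0.39. TNFSF13B had 10.02, 9.51, 9.42 and 10.29, which overlapped the TRL samples (-0.79 ± 0.32, unadjusted p 0.021, and -1.10 without array set 3). These R5020 and trilostane comparisons share the TRL samples.

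CCL5, a T cell and monocyte attractant, had 7.51, 6.82, 7.81 and 6.83 in day 15 hCG with TRL and 6.41, 6.44, 6.47 and 6.80 with R5020 (-0.71 ± 0.25, unadjusted p 0.0073). The replicate 4 values of 6.83 and 6.80 belong to the near-identical arrays, and without array set 3 the difference was -0.94 (adjusted p 0.35). IL6R, the binding subunit of the interleukin 6 receptor, differed by -0.55 ± 0.24 at day 10 and -0.50 ± 0.17 at day 15 (-0.67 without array set 3), with a range of -0.94 to -0.02 over the other settings at day 10. Its level differed between array sets (0.54 from set 1 to set 2, adjusted p 0.050). The day 10 TRL samples all lie in set 1 and the day 10 R5020 samples all in set 2. The day 10 difference of IL6R therefore rests on this estimate. IL13RA2 differed by 1.19 ± 0.42 at day 10 (unadjusted p 0.0085), with a range of -0.05 to 1.21 over the other settings, so its direction was not kept in all of them.

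Macrophage and monocyte markers moved beside these day 15 differences. With TRL, 14 of the 15 measured lay above 0, with a median change of 0.71 beside -0.07 for all genes. With R5020 against TRL, 1 of 15 lay above 0, with a median of -0.51. Their mean ran from 9.63 to 10.38 with TRL, from 9.42 to 9.88 with TRL and R5020 and from 9.22 to 9.64 with hCG alone. None of the 15 passed. Of 6 pericyte and smooth muscle markers measured, 1 lay above 0 with TRL (median -0.37) and 5 with R5020 against TRL (median 0.23). Both red cell markers lay below 0 with TRL (median -0.65) and above it with R5020 (median 0.52). The part of these markers in the values of TNFSF13B, IL15, CCRL2, IL13RA2 and CCL5 was not tested.

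**Figure D4:**
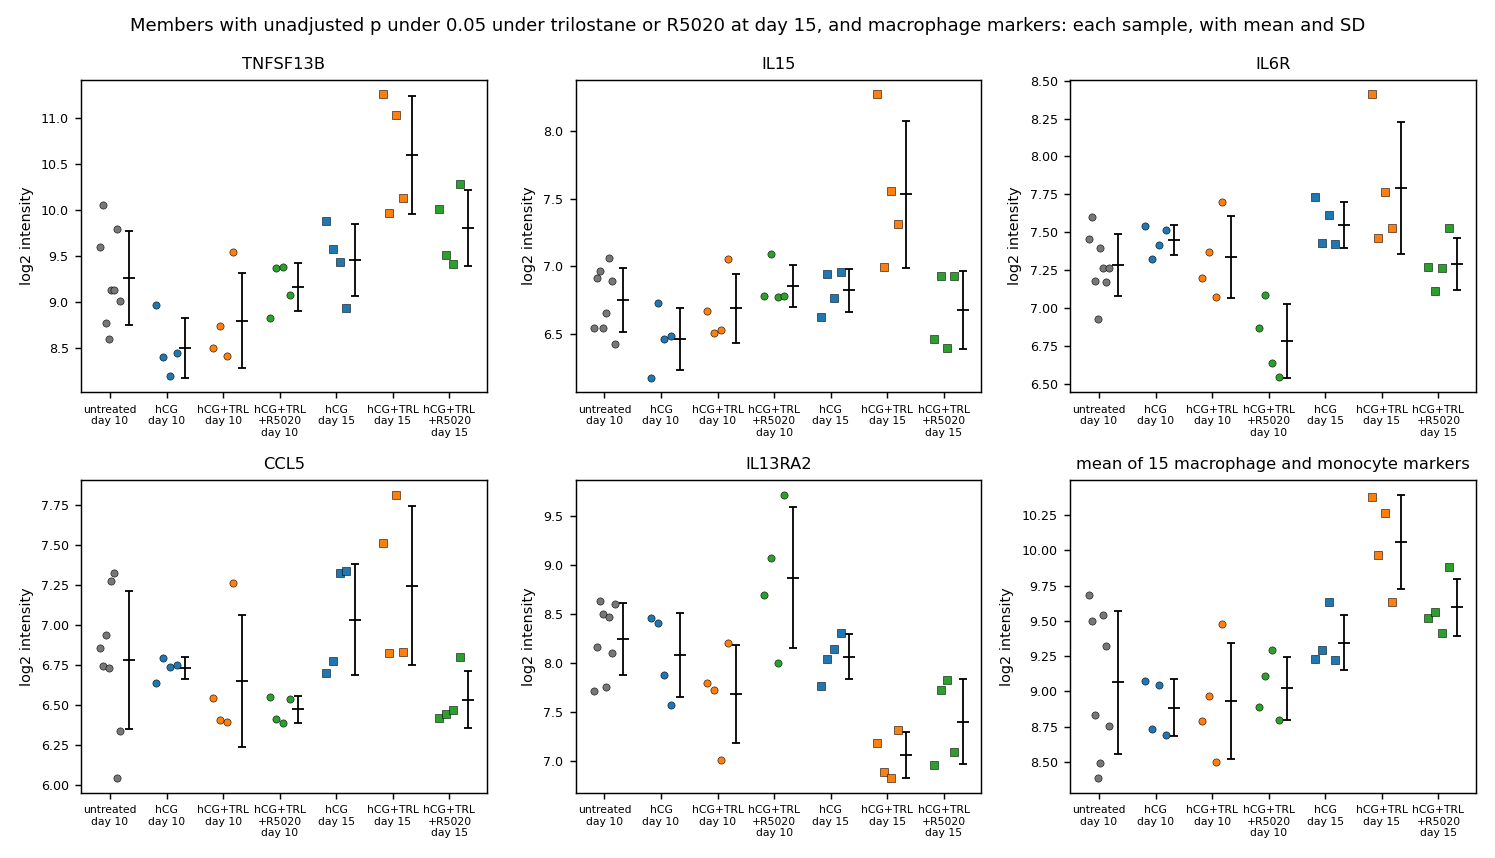
Each point is 1 sample's log2 level (vertical axis) in the 7 groups, with mean and SD, for 5 members with an unadjusted p under 0.05 in a day 15 comparison of TRL or R5020, and for the mean of 15 macrophage and monocyte markers. None of the 5 members passed after adjustment. The marker mean runs from 9.63 to 10.38 with TRL at day 15 and from 9.22 to 9.64 with hCG alone.

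Between R5020 with trilostane and hCG alone no member passed, and 0% of all genes passed, with 1 member at an unadjusted p under 0.05 at day 10 (6.26% of all genes) and 2 at day 15 (2.51%). In the tests of whether the effect of TRL or of R5020 differed between the days no member passed (0% of all genes), with 1 and 4 members at an unadjusted p under 0.05 beside 3.45% and 3.23% of all genes.

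Other genes of these pathways were read from fixed lists. Of 27 related chemokine and cytokine genes measured, 1 rose and 3 fell after 1 day of hCG, where 4.31% of all genes were higher and 1.29% lower. OSMR, a receptor subunit that pairs with IL6ST, rose by 0.74 ± 0.17 (adjusted p 0.014). The atypical chemokine receptors ACKR1 and ACKR3, which bind chemokines without classical signalling, changed by -1.09 ± 0.24 and -0.86 ± 0.24 (adjusted p 0.0095 and 0.037). NGFR, a TNF receptor family member that binds neurotrophins, changed by -1.48 ± 0.32 (adjusted p 0.0076). None of the 27 passed at 6 days against untreated. Between the days, OSMR fell by 0.77 ± 0.18 and LIF, an interleukin 6 type cytokine, by 0.68 ± 0.14 (adjusted p 0.0090 and 0.0037).

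Of 27 NF-kappaB signalling genes measured, TNIP1 and TNIP2, which bind the NF-kappaB inhibitor A20, rose after 1 day (0.56 ± 0.11 and 0.73 ± 0.16), 2 of 27 beside 4.31% of all genes. TNIP1 and the kinase IRAK1 were higher at 6 days (0.46 ± 0.11 and 0.53 ± 0.16), 2 of 27 beside 4.09% of all genes, and TNIP2 fell between the days (-0.77 ± 0.17), 1 of 27 beside 4.54%. Of 14 JAK-STAT genes measured, none passed at 1 day, where 5.6% of all genes did. At 6 days the transcription factor STAT6 (0.60 ± 0.13), the feedback inhibitor CISH (0.55 ± 0.16) and the phosphatase PTPN6 (1.08 ± 0.20) were higher, 3 of 14 beside 4.09% of all genes. PTPN6 also rose between the days (1.03 ± 0.21), 1 of 14 beside 3.19%. No gene of these 3 lists passed in a comparison of TRL or R5020.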

How the data were processed

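Rhesus luteal RNA was measured on 33 Affymetrix arrays. The values are the log2 intensities per probe set that the authors deposited, with background correction and summarization not given in the sources used here. Of 52865 probe sets, 99 controls were left out, and 28797 exceeded 6.2 in at least 4 arrays. Array medians differed by 0.183, so each array was centred. Probe sets were named through the platform annotation (17564 kept with 1 symbol, 240 with several and 10993 with none). Each gene stands for the kept probe set of highest mean.

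One limma 3.58.1 fit (R 4.3.3, lmFit and eBayes with trend) held 32 samples in 7 groups, with array set as a fixed term and 23 residual degrees of freedom. Tests were two-sided, with Benjamini-Hochberg adjustment over all kept probe sets. Changes are given ± SE. Overlap between the samples of groups was computed for members only, with no share over all genes, so it is a description. The fit was also run on simulated data with independent noise. Such data hold no effect shared between samples, so that run does not show how well the fit suits these arrays. The number of arrays limits the precision.

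Members and lists were chosen with earlier results of these data known. Named with values are members that passed, the 10 smallest F test p-values, the 8 brightest and a fixed set of well-known members. Any other member given was picked with its value in view, among them those with an unadjusted p under 0.05. Alternatives covered normalization, filter, array set, probe set choice, replicate handling and each sample left out.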

Additional observations from a re-analysis of the deposited data

Results flagged for a closer look

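In 6 of 175 pairs of a member and a group examined (3.43%), 1 sample lay far from the others of its group, by Dixon's criterion. Chance gives about 1 in 20. CCL21 had 9.02 in day 15 hCG replicate 4, and the other samples 8.37 to 8.44. CCL3 had 7.12 in untreated replicate 3, and the others 7.99 to 8.76. CCL5 had 6.80 in day 15 hCG with TRL and R5020 replicate 4, an array of the near-identical pair, and the others 6.41 to 6.47. CXCL16 had 7.45 in day 15 hCG with TRL replicate 1, and the others 7.25 to 7.27. IL15 had 7.09 in day 10 hCG with TRL and R5020 replicate 2, and the others 6.77 to 6.78. IL2RG had 7.95 in day 15 hCG with TRL replicate 3, and the others 6.98 to 7.13.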

How the results depend on the processing

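The count of members that differed among the 7 groups was 9 with the replicate number as a block (15 without it) and ran from 9 to 16 with each sample left out in turn. Samples with the same replicate number did not deviate together (median correlation 0.0157 over 84 pairs, beside 0.00235 over the other 348). The replicate numbers were therefore not taken as pairs. The numbers in the titles differ from them in some day 15 samples, and pairing by the titles was not tested. With that block IL13RA2 turned from 1.19 to -0.048 in day 10 R5020 against TRL. The cause was not tested.

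For 1 day of hCG against untreated, 1 member passed within array set 1, which has fewer samples, and 1 to 4 with each sample left out. For 6 days against 1 day, 5 passed with the mean of a gene's probe sets, and 2 to 5 with each sample left out, 5 of them without day 15 hCG replicate 1. For 6 days against untreated, 4 to 6 passed in every setting. For TRL, R5020 and the differences between days, 0 passed in every setting run. No value within 1 array set exists for TRL at day 15, R5020 against TRL at day 10, R5020 against hCG alone or the differences between days, since no set holds 2 samples of both groups. Of single calls, CCL25 at 1 day and CCL3 between the days were kept in 10 of 12 other settings, IL2 at 1 day in 5 and CCL8 at 6 days in 6. The calls of TNFRSF12A, of CCL25 at 6 days and of IL2 at 6 days and between the days were kept in all 12. Low signal limits TNFRSF11B, whose hCG group means lie under 6.2.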
